A study of Mus musculus with 12 samples.

Results

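A group of 10 genes of protein folding in the endoplasmic reticulum (ER) were followed in the left ventricle of mice with aortic banding (AB) and hispidulin. They were chosen by symbol, as the rows whose NCBI Gene identifier belongs to Hspa5, Hsp90b1, Calr, Canx, Pdia3, Pdia4, Pdia6, Dnajb9, Sdf2l1 and Xbp1, and all 10 were found among the 18079 genes measured. The rule uses symbols and no measured value, but the genes were chosen with earlier results of these data known. Male C57BL/6 mice (C57BL/6J in the study's methods) of 8 weeks underwent banding of the descending aorta, which imposes pressure overload on the heart, or a sham operation. Hispidulin, a plant flavone, or its solvent DMSO was injected intraperitoneally from 1 day ahead of surgery, hispidulin at 20 mg/kg/day, and hearts were taken 4 weeks after surgery, at 12 weeks of age. Sham mice formed the DMSO+Sham and Hispidulin+Sham groups and banded mice the DMSO+AB and Hispidulin+AB groups, with 3 mice and 1 library per mouse in each, and the labels name no transgene or deletion. Polyadenylated RNA of whole left ventricular muscle was sequenced, and expression was given as FPKM, a read count scaled for transcript length and library size.

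Proteins that enter the ER are bound by the chaperones Hspa5 (BiP) and Hsp90b1 (Grp94), by the lectin chaperones Calr and Canx when they carry sugar chains, and by disulfide isomerases such as Pdia3, Pdia4 and Pdia6 that form and rearrange disulfide bonds. When unfolded proteins accumulate, the sensors Ire1, Perk and Atf6 start the unfolded protein response, in which spliced Xbp1 and cleaved Atf6 raise the transcription of many of these chaperones. In heart muscle the ER is continuous with the calcium-storing sarcoplasmic reticulum, and ER stress has long been studied in pressure overload.

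A short sequence is shared by several of these genes. The ER stress element, CCAAT and CCACG separated by 9 bases, is the known binding site of NF-Y and Atf6 in chaperone promoters. Windows from 250 bases ahead of each annotated start to 49 bases past its first base were taken from the RefSeq promoter table (GRCm38.p6), which matched all 10 genes, and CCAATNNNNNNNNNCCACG was searched on both strands. It was found in the windows of 5 of the 10 genes, Hspa5, Hsp90b1, Calr, Canx and Pdia6, and in 39 of 32851 windows in all (0.119%). These 5 are printed 5′ to 3′ on the strand of the gene, with the outer parts of each element in capitals and 10 flanking bases on either side. Whether the element has a part in how the genes varied among mice was not tested. Where the element lies on the opposite strand, its outer parts read CGTGG and ATTGG.
Hspa5, chr2:34772015-34772053, plus strand: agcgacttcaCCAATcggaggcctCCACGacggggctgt
Canx, chr11:50325790-50325828, minus strand: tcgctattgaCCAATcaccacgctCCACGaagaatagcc
Pdia6, chr12:17266481-17266519, plus strand: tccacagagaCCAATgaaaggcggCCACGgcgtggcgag
Calr, chr8:84847065-84847103, minus strand: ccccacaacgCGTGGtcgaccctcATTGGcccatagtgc
Hsp90b1, chr10:86705523-86705666, minus strand: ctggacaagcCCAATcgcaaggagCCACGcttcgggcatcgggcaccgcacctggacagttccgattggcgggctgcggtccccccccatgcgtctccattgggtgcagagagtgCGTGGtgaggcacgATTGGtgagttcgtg
Hsp90b1 held 2 elements, 1 on each strand, and the others held 1. The element of Hspa5 lay nearest to the start, from -65 to -47, and the farther element of Hsp90b1 the most distant, from -212 to -194. The letters of the second ER stress element, ATTGGNCCACG, and of the unfolded protein response element, TGACGTGG, were in 0 of the 10 windows, against 12 (0.0365%) and 222 (0.676%) of all windows. The short motif CCACG alone, which every ER stress element contains, was in 8 of the 10 windows and in 32.8% of all. A match is a description of the sequence and does not show that a factor was bound there in these hearts. Only exact letters within the window were searched, so a gene without a match is not shown to lack an element. Below, a gene is said to hold an element where its window had a match.

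**Figure D1:**
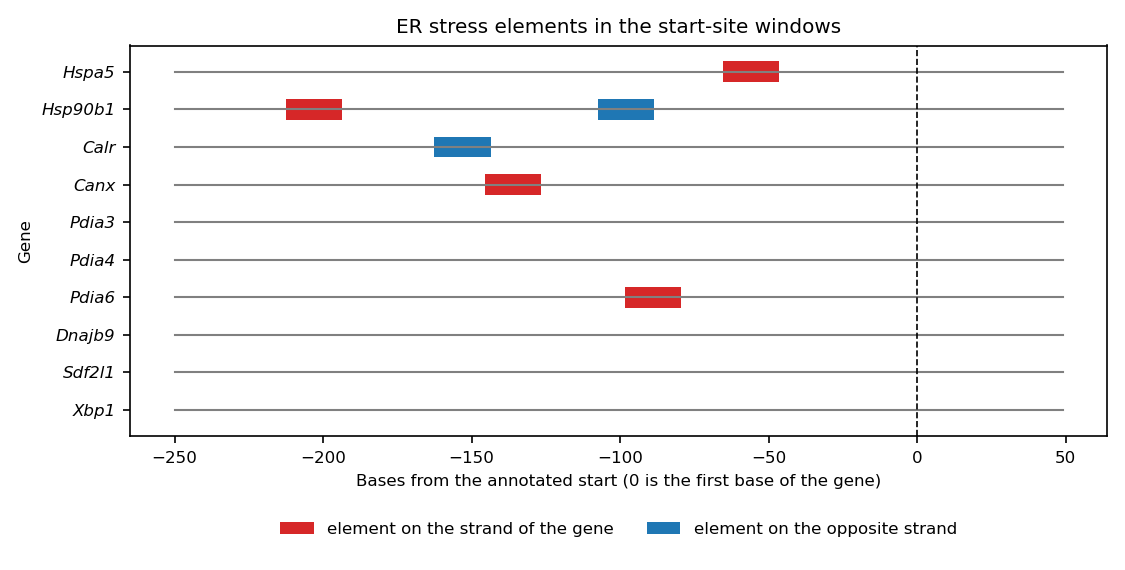
Position of the ER stress element in the window around the annotated start of each of the 10 genes. The horizontal axis gives bases from the start, grey lines are the windows searched, red bars are elements on the strand of the gene and blue bars on the opposite strand. The 6 elements lie in 5 genes, all ahead of the start.

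All 10 genes were expressed in every mouse and passed the filter for testing, which asked for 3 or more mice with an FPKM of 1 or more and left 11664 genes. Hspa5 had the highest mean over the 12 mice, 207 ± 44.7 FPKM (SD, n = 12), and ranked 393 among all genes. Calr followed at 177 ± 29.8 FPKM, Hsp90b1 at 117 ± 23.0, Canx at 68.1 ± 11.5, Pdia3 at 62.2 ± 9.05, Pdia6 at 44.5 ± 9.77, Xbp1 at 38.8 ± 8.29 and Dnajb9 at 37.2 ± 3.47 FPKM. Pdia4, at 10.7 ± 1.75 FPKM, and Sdf2l1, at 5.61 ± 2.32 FPKM, were the lowest. The order held in all 12 mice between most neighbours, but Hspa5 was above Calr in 11 mice, Canx above Pdia3 in 10, Pdia6 above Xbp1 in 10, and Xbp1 above Dnajb9 in only 6, so Xbp1 and Dnajb9 were not separated. Sdf2l1 varied most among mice, with a coefficient of variation of 41.4%, and Dnajb9 least, with 9.32%.

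The libraries were comparable in outline. Each mouse had a total FPKM of 535235 to 567027, and mice of 1 group correlated by a Spearman's rho of 0.968 to 0.986. All 8 cardiomyocyte markers were present in every group, with a summed level of 36166 to 53292 FPKM per mouse. In DMSO+AB against DMSO+Sham, 6 of the 8 were lower, 3 of them at an unadjusted p under 0.05, and the calcium release channel Ryr2 was called (log2 fold change -0.59, adjusted p = 0.0364). The largest difference of the 8 was in the other direction, in the actin Actc1 (0.78, unadjusted p = 0.0460 by limma, adjusted p = 0.235). The summed level of the 8 fibroblast markers was 346 to 448 FPKM in DMSO+Sham and 354 to 483 in Hispidulin+Sham, against 406 to 987 in DMSO+AB and 407 to 656 with hispidulin after AB, and 3 of the 8 were called higher in DMSO+AB than in DMSO+Sham. Of the 4 atrial markers, 1 was higher and 3 were lower in DMSO+AB than in DMSO+Sham. The higher 1, Nppa, a natriuretic peptide that ventricles also make under load, was called (log2 fold change 4.54, adjusted p = 0.0121), and the other 3 (Myl7, Sln and Myl4) had log2 fold changes of -0.77 to -0.18 and were not called. Those 3 summed to 774 FPKM in the third Hispidulin+Sham mouse and 172 FPKM in the second DMSO+AB mouse, against 2.53 to 91.0 FPKM in the other 10 mice. The plasma and B cell markers stayed at or under 3.25 FPKM in every mouse. Fewer cells of a type and less RNA per cell cannot be told apart in such tissue, and the part of cell composition in the results for the ER genes was not tested. Across 6452 genes, the deviation of a library from the mean correlated with transcript length by a Spearman's rho of -0.230 to 0.245 in DMSO+AB, -0.218 to 0.341 in Hispidulin+AB and -0.110 to 0.181 in the sham groups, and its part was not tested either.

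The first comparison was of DMSO+AB with DMSO+Sham, the effect of pressure overload without the drug. All 10 genes had a lower mean after AB, with log2 fold changes of FPKM + 1 of -0.89 to -0.12, and none was called at an adjusted p under 0.05 by limma. In that comparison 608 genes, or 5.21% of those tested, were called. Among all genes tested 55.8% were lower, and the median log2 fold change was -0.40 for the 10 genes and -0.03 for all genes. At an unadjusted p under 0.05, 6 of the 10 were lower, against 11.1% of all genes. In 5 of the 10, every DMSO+AB mouse lay below every DMSO+Sham mouse, against 10.8% of all genes. Those 5 were Hsp90b1, Canx, Pdia6, Dnajb9 and Sdf2l1.

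Hspa5, the ER member of the Hsp70 family and the most abundant of the 10, was at 231, 293 and 196 FPKM in the DMSO+Sham mice and at 204, 166 and 122 FPKM in the DMSO+AB mice. The groups overlapped, since the first DMSO+AB mouse was above the third DMSO+Sham mouse. The log2 fold change was -0.56 (SE 0.185, limma adjusted p = 0.111). Without the first DMSO+AB mouse it was -0.73 and passed the test (adjusted p = 0.0342), without the third it was -0.36, and its adjusted p spanned 0.0342 to 0.340 over the alternatives.

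Hsp90b1, the ER form of Hsp90, which folds integrins and Toll-like receptors among other clients, was at 138, 147 and 119 FPKM in DMSO+Sham and at 110, 119 and 56.2 FPKM in DMSO+AB. The groups did not overlap, but the highest DMSO+AB mouse lay just under the lowest DMSO+Sham mouse and the third DMSO+AB mouse stood far below the others. The log2 fold change was -0.57 (SE 0.222, adjusted p = 0.173), and without the third DMSO+AB mouse it was -0.23.

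Of the lectin chaperones, Canx, which is anchored in the ER membrane, was at 77.4, 83.6 and 73.7 FPKM in DMSO+Sham and at 65.9, 58.1 and 39.6 FPKM in DMSO+AB. Every banded mouse lay below every sham mouse, and the log2 fold change of -0.54 (SE 0.152) did not pass the test (adjusted p = 0.0624). A call was given by 2 alternatives, library weights (-0.46, adjusted p = 0.0329) and leaving out the first DMSO+AB mouse (-0.69, adjusted p = 0.0159). Without the third DMSO+AB mouse the log2 fold change was -0.33, and the adjusted p spanned 0.0159 to 0.292 over the alternatives. Calr, its soluble counterpart and a calcium-binding protein, was at 179, 243 and 147 FPKM in DMSO+Sham and at 160, 161 and 174 FPKM in DMSO+AB. The spread of Calr was wider among the sham mice than the difference between groups, and the log2 fold change was -0.17 (95% confidence interval -0.55 to 0.21), or 0.023 without the second DMSO+Sham mouse. Calr differed from the other chaperones in that the third DMSO+AB mouse was the highest of its group.

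All 3 disulfide isomerases had lower means after AB and none was called. Pdia6 was at 46.4, 65.4 and 43.5 FPKM in DMSO+Sham and at 40.5, 40.5 and 30.8 FPKM in DMSO+AB. The groups did not overlap, and the log2 fold change was -0.45 (SE 0.187, adjusted p = 0.197), or -0.27 without the second DMSO+Sham mouse. Pdia3, the partner of Calr and Canx in glycoprotein folding, was at 51.3, 75.1 and 69.2 FPKM in DMSO+Sham and at 56.6, 75.7 and 48.6 FPKM in DMSO+AB, with both the highest and the lowest value among the banded mice. Its log2 fold change was -0.12 (95% confidence interval -0.49 to 0.26), and it turned to 0.22 with library weights and to 0.023 without the third DMSO+AB mouse. Pdia4 was at 8.97, 13.5 and 13.8 FPKM in DMSO+Sham and at 9.47, 11.6 and 10.2 FPKM in DMSO+AB, where the first sham mouse was below all banded mice. Its log2 fold change was -0.18 (95% confidence interval -0.54 to 0.18) and turned to 0.11 with library weights.

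Of the genes that serve Hspa5, Sdf2l1, a soluble ER protein that forms complexes with it, was at 5.48, 8.81 and 10.7 FPKM in DMSO+Sham and at 4.04, 3.70 and 3.95 FPKM in DMSO+AB. The 3 banded mice lay close together below all sham mice. The log2 fold change was -0.89 (SE 0.250, adjusted p = 0.0621), which was the lowest of the 10, and it ran from -1.16 to -0.58 over the alternatives, none of which gave a call in this comparison. Dnajb9 (ERdj4), a J-domain co-chaperone, was at 39.3, 38.0 and 43.2 FPKM in DMSO+Sham and at 35.2, 33.6 and 32.7 FPKM in DMSO+AB. The difference of Dnajb9 was small but the groups did not overlap, with a log2 fold change of -0.24 (SE 0.0932, adjusted p = 0.167).

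Xbp1, the transcription factor of the unfolded protein response, was at 32.9, 46.1 and 62.5 FPKM in DMSO+Sham and at 34.6, 36.2 and 36.5 FPKM in DMSO+AB. The sham mice covered a wide range that included the banded mice, and the log2 fold change was -0.34 (95% confidence interval -0.73 to 0.04, adjusted p = 0.297). Without the third DMSO+Sham mouse it was -0.12. A single FPKM value per gene does not separate spliced from unspliced Xbp1.

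**Figure D2:**
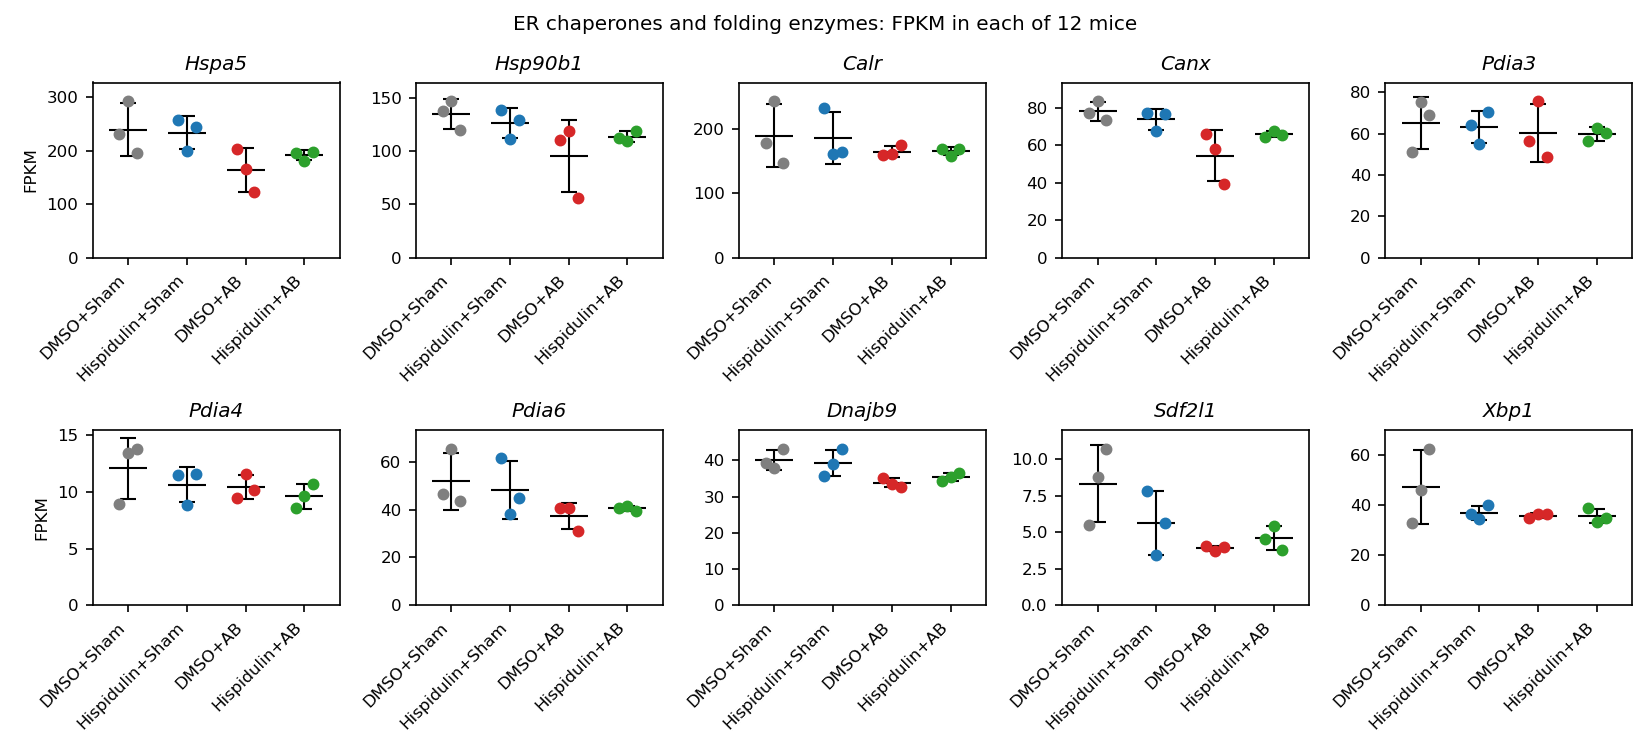
FPKM of the 10 genes in each of the 12 mice, 1 panel per gene with the vertical axis from 0. Points are mice in the order of their replicate number, the long horizontal line is the group mean and the bars are 1 SD (n = 3). Hsp90b1, Canx, Pdia6, Dnajb9 and Sdf2l1 show no overlap between DMSO+Sham (grey) and DMSO+AB (red), and Hispidulin+AB (green) is tightly grouped for most genes.

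Next, banding was compared in the hispidulin-treated mice. All 10 genes were again lower, with log2 fold changes of -0.28 to -0.05 in Hispidulin+AB against Hispidulin+Sham, against 54.9% of all genes. Without the first Hispidulin+Sham mouse 8 of the 10 were lower, with a median of -0.06 in place of -0.15, without the second all 10, with a median of -0.24, and without the third 8, with a median of -0.13. Of the marker lists, in Hispidulin+AB 8 of 8 fibroblast markers were higher (median log2 fold change 0.38, 1 at an unadjusted p under 0.05), as were 6 of 7 endothelial (0.14, with 1) and 4 of 5 smooth muscle and pericyte markers (0.09, with 2). All 5 red cell markers were lower, with a median of -0.77 and none at an unadjusted p under 0.05. No marker was called, and their part was not tested. None of the 10 passed the test, and of all genes 0 were called (0.0%) by limma, with an unadjusted p under 0.05 in 847 genes (7.26%) and in 0 of the 10. A replicate block gave 17 calls in all and again 0 among the 10. Hspa5 had the greatest difference among the 10, at 258, 199 and 245 FPKM in Hispidulin+Sham and 196, 182 and 198 FPKM in Hispidulin+AB. It was the only 1 of the 10 whose groups did not overlap, with Hispidulin+AB below, against 11.8% of all genes, and its log2 fold change was -0.28 (95% confidence interval -0.68 to 0.13, adjusted p = 0.846). Sdf2l1, at 7.81, 3.41 and 5.66 FPKM in Hispidulin+Sham and 4.56, 5.41 and 3.78 FPKM in Hispidulin+AB, overlapped widely and differed by -0.20 (95% confidence interval -0.75 to 0.34).

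Averaged over DMSO and hispidulin, with 6 banded and 6 sham mice, 862 genes (7.39%) and 0 of the 10 were called for AB against Sham. The 10 genes were all lower, against 55.8% of all genes, and 6 of the 10 were lower at an unadjusted p under 0.05, against 12.9% of all genes. In the same comparison all 8 fibroblast markers were higher and 4 of them called, 1 smooth muscle and pericyte marker, Tagln, was called higher (0.49, adjusted p = 0.0430), Nppa was called higher (2.85, adjusted p = 0.0135) and Ryr2 was called lower (-0.38, adjusted p = 0.0418), and their part was not tested. Canx (-0.35, SE 0.108, adjusted p = 0.0710), Hspa5 (-0.42, SE 0.131, adjusted p = 0.0779), Sdf2l1 (-0.55, SE 0.176, adjusted p = 0.0846) and Dnajb9 (-0.19, SE 0.0659, adjusted p = 0.0989) came nearest to the threshold. Single alternatives carried some of them past it. With library weights Hspa5 (-0.36, adjusted p = 0.0233), Canx (-0.30, adjusted p = 0.0169) and Dnajb9 (-0.18, adjusted p = 0.0435) were called, and with the series of the numbers in the sample codes as a covariate Sdf2l1 was (-0.71, adjusted p = 0.0449). Leaving out the first DMSO+AB mouse gave calls for Hspa5 (-0.50, adjusted p = 0.0265) and Canx (-0.43, adjusted p = 0.0199), leaving out the third DMSO+Sham mouse for Hspa5 (-0.48, adjusted p = 0.0366), and leaving out the first DMSO+Sham or the second Hispidulin+Sham mouse for Sdf2l1 (-0.67, adjusted p = 0.0466, and -0.68, adjusted p = 0.0415). The adjusted p spanned, over the alternatives, 0.0169 to 0.146 for Canx, 0.0233 to 0.164 for Hspa5, 0.0415 to 0.201 for Sdf2l1 and 0.0435 to 0.212 for Dnajb9.

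The effect of hispidulin in banded hearts was the comparison of Hispidulin+AB with DMSO+AB. No change of the 10 genes was found, and 0 genes (0.0%) were called by limma in all, with 362 genes (3.1%) and 0 of the 10 at an unadjusted p under 0.05. Of the 10, 8 had a higher mean with hispidulin, against 51.4% of all genes, and 0 of the 10 had groups that did not overlap, against 7.88% of all genes. The differences were largest for Hsp90b1, at 112, 109 and 119 FPKM in Hispidulin+AB (log2 fold change 0.33, 95% confidence interval -0.16 to 0.81), for Canx, at 64.7, 67.7 and 65.3 FPKM (0.30, 95% confidence interval -0.03 to 0.63), and for Hspa5 (0.25, 95% confidence interval -0.15 to 0.66). For all 3 genes the third DMSO+AB mouse was far below the Hispidulin+AB mice. Without that mouse the difference was -0.013 for Hsp90b1, and the median over the 10 genes was 0.02 in place of 0.10. It was 0.17 without the second DMSO+AB mouse and 0.06 with library weights. Fibroblast markers were lower with hispidulin in 7 of 8, with a median of -0.34 and none at an unadjusted p under 0.05. Smooth muscle and pericyte markers were higher in 4 of 5, 2 of them at an unadjusted p under 0.05. Nppa was lower by -1.77, at an unadjusted p under 0.05 by limma. Red cell markers were lower in 5 of 5 (median -0.26) and cardiomyocyte markers higher in 6 of 8 (median 0.16), none at an unadjusted p under 0.05. No marker was called, and the part of any of these was not tested. Calr (0.00, 95% confidence interval -0.37 to 0.38), Pdia3 (0.01, 95% confidence interval -0.36 to 0.39) and Xbp1 (-0.01, 95% confidence interval -0.39 to 0.37) had nearly equal means in the banded groups.

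Among sham mice, hispidulin went with lower means of all 10 genes, against 52.3% of all genes, and with 0 calls (0.0%), while 287 genes (2.46%) and 0 of the 10 had an unadjusted p under 0.05. Without the second DMSO+Sham mouse 6 of the 10 were lower, with a median of -0.03, and without the second Hispidulin+Sham mouse also 6, with a median of -0.01. All 5 red cell markers were higher with hispidulin, with a median log2 fold change of 0.83, 2 of them at an unadjusted p under 0.05 and none called, and they summed to 3451 to 10251 FPKM in Hispidulin+Sham against 2688 to 4391 FPKM in DMSO+Sham. Of the fibroblast markers 7 of 8 were higher, with a median of 0.33, 1 at an unadjusted p under 0.05 and none called. The third Hispidulin+Sham mouse had the highest red cell sum of the 12 and the highest sum of the atrial markers other than Nppa. Without that mouse 9 of the 10 ER genes were lower, with a median of -0.11 in place of -0.09. The median was -0.18 without the first Hispidulin+Sham mouse, with 9 lower, -0.14 without the third DMSO+Sham mouse, with 8 lower, and -0.04 with library weights, with 8 lower. The part of these markers was not tested. In 0 of the 10 were the groups separate, against 5.6% of all genes. Sdf2l1 differed by -0.51 (95% confidence interval -1.05 to 0.04) and Xbp1, at 36.2, 34.2 and 40.1 FPKM in Hispidulin+Sham, by -0.31 (95% confidence interval -0.69 to 0.08), and the other 8 by -0.16 to -0.02. The second Hispidulin+Sham mouse, at 3.41 FPKM, had the lowest Sdf2l1 of the 12 and entered the difference of that gene. For Xbp1 the high value of the third DMSO+Sham mouse entered the difference, which was -0.08 without it. Averaged over Sham and AB, hispidulin gave 0 calls (0.0%), with 347 genes (2.97%) and 0 of the 10 at an unadjusted p under 0.05, and 5 of the 10 were higher and 5 lower.

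Whether the effect of AB differed with hispidulin was asked with the interaction. It was called for 0 genes (0.0%) and for 0 of the 10, and 289 genes (2.48%) and 0 of the 10 had an unadjusted p under 0.05. All 10 estimates were above 0, against 53.4% of all genes, the highest being Sdf2l1 (0.69, 95% confidence interval -0.08 to 1.46), Hsp90b1 (0.42, 95% confidence interval -0.27 to 1.10) and Canx (0.38, 95% confidence interval -0.09 to 0.85). Without the third DMSO+AB mouse the interaction was 0.08 for Hsp90b1 and 0.17 for Canx, and the median over the 10 genes was 0.08. Without the second DMSO+Sham or the second Hispidulin+Sham mouse, 7 of the 10 were above 0, with a median of 0.13 in either fit. That Hispidulin+Sham mouse had the lowest Sdf2l1 of all mice, 3.41 FPKM, which entered the estimate of Sdf2l1. With library weights 8 of the 10 were above 0, with a median of 0.10 in place of 0.26. The estimates of all 8 fibroblast markers were below 0, with a median of -0.89, as were those of all 5 red cell markers, with a median of -1.01, and none of these had an unadjusted p under 0.05. That of Nppa was -3.37 (unadjusted p = 0.0122 by limma, adjusted p = 1.00), and the part of these markers was not tested. The DMSO+Sham and DMSO+AB mice enter several of these comparisons, so the signs in one are not independent of those in another. The mean of Hsp90b1 was 135 ± 14.0 FPKM in DMSO+Sham mice and 126 ± 13.8 in Hispidulin+Sham mice, and after AB 95.1 ± 34.0 with DMSO and 114 ± 5.22 with hispidulin (SD, n = 3). In the same order, that of Hspa5 was 240 ± 49.3, 234.1 ± 31.2, 164 ± 41.0 and 192 ± 8.81 FPKM.

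**Figure D3:**
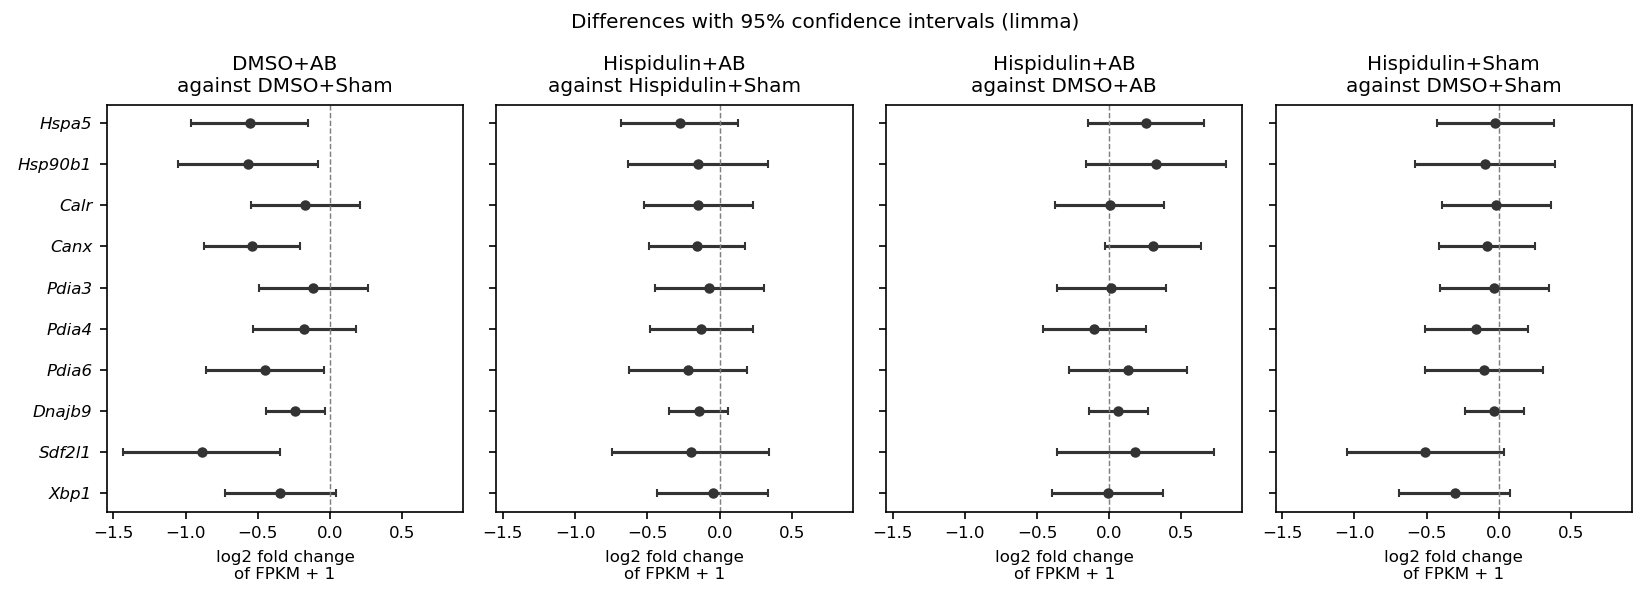
Log2 fold changes of FPKM + 1 for the 10 genes in 4 comparisons of 3 mice with 3. Points are limma estimates and bars are 95% confidence intervals, not adjusted for the number of genes. In DMSO+AB against DMSO+Sham all points lie below 0 and the bars of 6 genes stop short of 0, whereas in the other comparisons every bar crosses 0.

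Much of the variation was between single mice. When each gene was standardized over the 12 mice and the 10 were averaged, the second DMSO+Sham mouse was highest, at 1.35 SDs, and the third DMSO+AB mouse lowest, at -1.38 SDs. The other DMSO+Sham mice were at 0.02 and 0.82, the Hispidulin+Sham mice at 0.74, -0.44 and 0.54, and the other DMSO+AB mice at -0.43 and -0.27. The Hispidulin+AB mice were at -0.41, -0.32 and -0.24, which was the narrowest range of the 4 groups. The third DMSO+AB mouse had the lowest value of all 12 for 6 of the 10 genes, and the second and the third DMSO+Sham mice had the highest for 5 and 4. As a share of all FPKM, the 10 genes made up 0.0983% in that DMSO+AB mouse and 0.182% in the second DMSO+Sham mouse. The same DMSO+AB mouse had the lowest sum of the 5 smooth muscle and pericyte markers, 136 FPKM against 164 to 215 in the other mice, and the second highest sums of endothelial markers, 361 FPKM, and of fibroblast markers, 679 FPKM. Its Nppa level was 5738 FPKM, but the other 3 atrial markers summed to 4.31 FPKM, inside the range of the other mice. Its T cell markers, near 0 in every mouse, were also lowest, at 0.21 FPKM, while its cardiomyocyte markers summed to 46272 FPKM, inside the range of the other mice. Of the mice with the highest ER gene levels, the second DMSO+Sham mouse had the highest cardiomyocyte sum of the 12, 53292 FPKM, and the third DMSO+Sham mouse had the lowest, 36166 FPKM, and the highest macrophage sum, 471 FPKM. The part of these in the ER gene levels was not tested.

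Without the third DMSO+AB mouse, the median log2 fold change of the 10 genes in DMSO+AB against DMSO+Sham was -0.28, and 9 of the 10 were lower. Without the second DMSO+Sham mouse it was -0.31, also with 9 lower, and with library weights -0.26, with 8 lower. In the other direction, it was -0.53 without the first DMSO+Sham mouse and -0.45 without the third. With the series of the numbers in the sample codes as a covariate it was -0.55, and in these 3 fits all 10 were lower. The sample codes in the labels hold numbers that fall in series, which the labels do not explain, and the first DMSO+Sham mouse is alone in its own. In the series that held 1 DMSO+AB and 1 DMSO+Sham mouse, which were this lowest and this highest mouse, the median difference was -0.80, and in the series that held 2 DMSO+AB mice and 1 DMSO+Sham mouse it was -0.18. In the latter the log2 difference was 0.12 for Calr, -1.27 for Sdf2l1 and -0.80 for Xbp1. For Hispidulin+AB against DMSO+AB the median difference was 0.23 in the series with 1 mouse of each group and 0.02 in the series with 2 of each. In the first of these series Hsp90b1 differed by 1.07, Canx by 0.71 and Hspa5 by 0.69, and in the second by -0.05, 0.09 and 0.04.

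**Figure D4:**
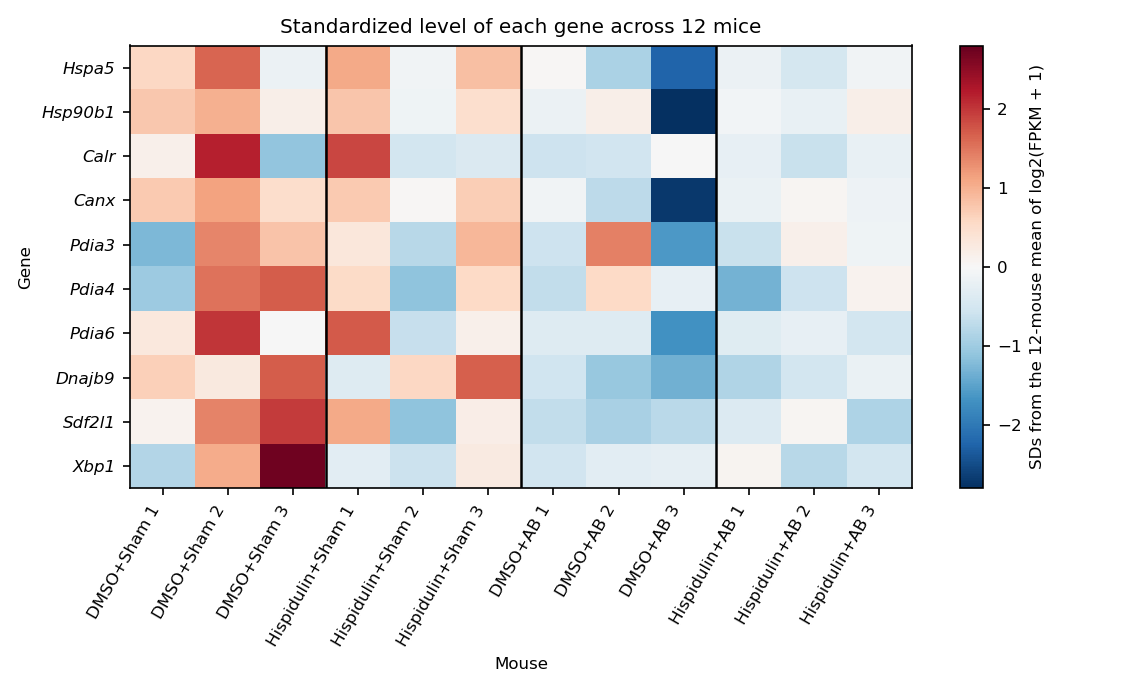
Standardized level of the 10 genes (rows) in the 12 mice (columns), as SDs from the mean of log2(FPKM + 1) over all mice, with black lines between groups. The column of the third DMSO+AB mouse is blue for nearly every gene with Calr near 0, the column of the second DMSO+Sham mouse is red throughout, and Xbp1 is highest in the third DMSO+Sham mouse.

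Several of the genes followed each other among mice. Of the 45 pairs, 43 had a Pearson r above 0 over the 12 mice, with a median of 0.50, and 36 were above 0, with a median of 0.20, after group means were removed. The closest pairs were Hsp90b1 with Canx (r = 0.95, and 0.93 within groups), Hspa5 with Canx (0.94 and 0.88) and Hspa5 with Pdia6 (0.89 and 0.83). The windows of all these genes held an ER stress element. The third DMSO+AB mouse had the lowest value of the 12 for each of them, and these r values were not recomputed without it. For the 10 pairs in which both windows held a match the median r was 0.79, and 0.72 within groups. For the 10 pairs with a match in neither it was 0.54, and 0.49 within groups, and for the 25 mixed pairs it was 0.41, and 0.14 within groups. Among the genes without a match, Pdia3 and Pdia4 followed each other (0.78, and 0.80 within groups), as did Xbp1 and Sdf2l1 (0.76 and 0.63). Pdia4 also followed Xbp1 (0.75 and 0.69) and Sdf2l1 (0.71 and 0.69). Sdf2l1 followed Pdia6, whose window held a match (0.71 and 0.50), so the pairs did not form separate sets. Calr was the exception among the genes with a match, with an r of 0.33 with Hsp90b1 and with Canx, although it followed Pdia6 (0.78). The lowest r was that of Calr with Dnajb9, at -0.13 and at -0.80 within groups. These correlations share the same 12 libraries, and the part of library quality and composition in them was not tested.

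In the comparison of DMSO+AB with DMSO+Sham, the 5 genes with a match had a median log2 fold change of -0.54 and the 5 without had a median of -0.24. The ranges overlapped, at -0.57 to -0.17 with a match and -0.89 to -0.12 without, and the difference between them was not tested. Of the genes with a match, Hspa5, Hsp90b1, Canx and Pdia6 were at their lowest of all mice in the third DMSO+AB mouse. The medians of the 2 sets were not recomputed without that mouse. Of the 37 genes in the annotation whose windows hold the element, 16 were tested. Of these, 11 were not among the 10, and 9 of the 11 were lower after AB, with a median of -0.16 and 1 call, where 55.8% of all genes were lower and 5.21% called. The called gene was Acacb, acetyl-CoA carboxylase 2, with a log2 fold change of -0.59 (SE 0.150, adjusted p = 0.0441), called in 6 of 16 alternatives. Known ER genes among the 11 were Dnajc3 (-0.28, adjusted p = 0.461), Ero1b (-0.17, adjusted p = 0.436), Syvn1 (-0.16, adjusted p = 0.388), Creld2 (-0.15, adjusted p = 0.659) and Alg12 (0.09, adjusted p = 0.713). None of these 5 passed the test.

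The other ER and chaperone lists were counted in the same comparison, DMSO+AB against DMSO+Sham, and no test compares the lists. Of 34 other ER folding genes tested, 17 were higher and 17 lower, with a median of -0.01, and 2 were called, both higher. Among the 17 lower were Hyou1 (-0.32), Manf (-0.28), Dnajc3 (-0.28), Sil1 (-0.24) and Dnajb11 (-0.13). Among the 17 higher were Txndc5 (0.55), P4hb (0.11) and Pdia5 (0.09), and none of these named genes was called. At an unadjusted p under 0.05 by limma were 5 of the higher genes and 1 of the lower, Tor1a (-0.23). Of all genes 44.2% were higher, 5.21% were called and 2.5% were called higher, and the counts of this list and of those that follow stand against these shares. The called genes were Serpinh1 (Hsp47), the collagen chaperone, at 112 ± 15.9 FPKM in DMSO+Sham and 199 ± 31.8 in DMSO+AB (log2 fold change 0.83, SE 0.194, adjusted p = 0.0334), and Qsox1, a sulfhydryl oxidase, at 24.1 ± 6.60 and 40.3 ± 5.60 FPKM (0.74, SE 0.189, adjusted p = 0.0432). Both rose together with 3 fibroblast markers, Col1a1, Col1a2 and Postn, and the part of fibroblast content was not tested. Each call held in 9 of 16 alternatives. Among 17 sensors and effectors of the unfolded protein response, 12 were higher, with a median of 0.08. Bak1, a pore-forming protein of apoptosis that also acts at the ER, rose by 0.72 (SE 0.129, adjusted p = 0.0121), and Creb3l2, an ER-bound transcription factor that drives secretory genes, rose by 0.65 (SE 0.170, adjusted p = 0.0477), calls that held in 13 and 7 of 16 alternatives. Atf4, the transcription factor translated when Perk is active, was at 74.2 ± 15.6 FPKM in DMSO+Sham and 109 ± 11.2 in DMSO+AB (0.57, adjusted p = 0.0597) and was called in the average over DMSO and hispidulin (0.57, adjusted p = 0.0126), there in all 21 alternatives.

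Of 22 genes of ER-associated degradation tested, 8 were higher and 14 lower, with a median of -0.08, and 1 was called. Herpud1, a membrane protein of the degradation complex and a strong target of the unfolded protein response, was at 227, 331 and 525 FPKM among the DMSO+Sham mice and at 112, 136 and 187 FPKM among the DMSO+AB mice, given from lowest to highest. Its groups did not overlap, and its log2 fold change was -1.26 (SE 0.259, adjusted p = 0.0205), greater in size than that of any of the 10 genes. The call held in 11 of 16 alternatives and was lost, among fits with 1 mouse left out, without the first DMSO+Sham mouse and without the second DMSO+AB mouse, with an adjusted p of 0.00255 to 0.157 over the alternatives. In Hispidulin+AB it was at 191 ± 24.5 FPKM (SD, n = 3), with a log2 fold change of 0.43 against DMSO+AB (adjusted p = 0.996). The next in the list, Selenos, differed by -0.35 (adjusted p = 0.217). Of 25 genes of translocation and N-glycosylation none was called (median 0.02), the extremes being Magt1 (-0.33, adjusted p = 0.323) and Sec61b (0.31, adjusted p = 0.316).

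Of 20 genes of ER to Golgi transport, 13 were higher, with a median of 0.07, and Sar1a, the GTPase that starts COPII coats, fell from 106 ± 1.36 to 83.8 ± 6.82 FPKM (log2 fold change -0.34, SE 0.0833, adjusted p = 0.0407), a call that held in only 6 of 16 alternatives. Kdelr3, a receptor that returns KDEL-bearing proteins such as Hspa5 to the ER, was at 3.26 ± 2.01 and 6.57 ± 1.69 FPKM (0.90, adjusted p = 0.0696) and was called in the averaged comparison (0.70, adjusted p = 0.0392), in 9 of 21 alternatives. Of 24 cytosolic chaperones, 18 were higher, with a median of 0.18 and 0 calls in DMSO+AB against DMSO+Sham, where 5 (all higher) had an unadjusted p under 0.05, against 20.4% of all genes in both directions and 9.25% higher. Bag3 (0.51, adjusted p = 0.0167) and the heat-inducible Hspa1b (3.38, adjusted p = 0.0330) were called in the averaged comparison, in 18 and 10 of 21 alternatives, but Hspa1b ranged from 2.12 to 55.2 FPKM within DMSO+Sham and shares nearly all its sequence with Hspa1a, so the assignment of its reads is uncertain. In Hispidulin+AB against DMSO+AB, 0 genes of these 6 lists were called, and their medians lay between -0.08 and 0.05.

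**Figure D5:**
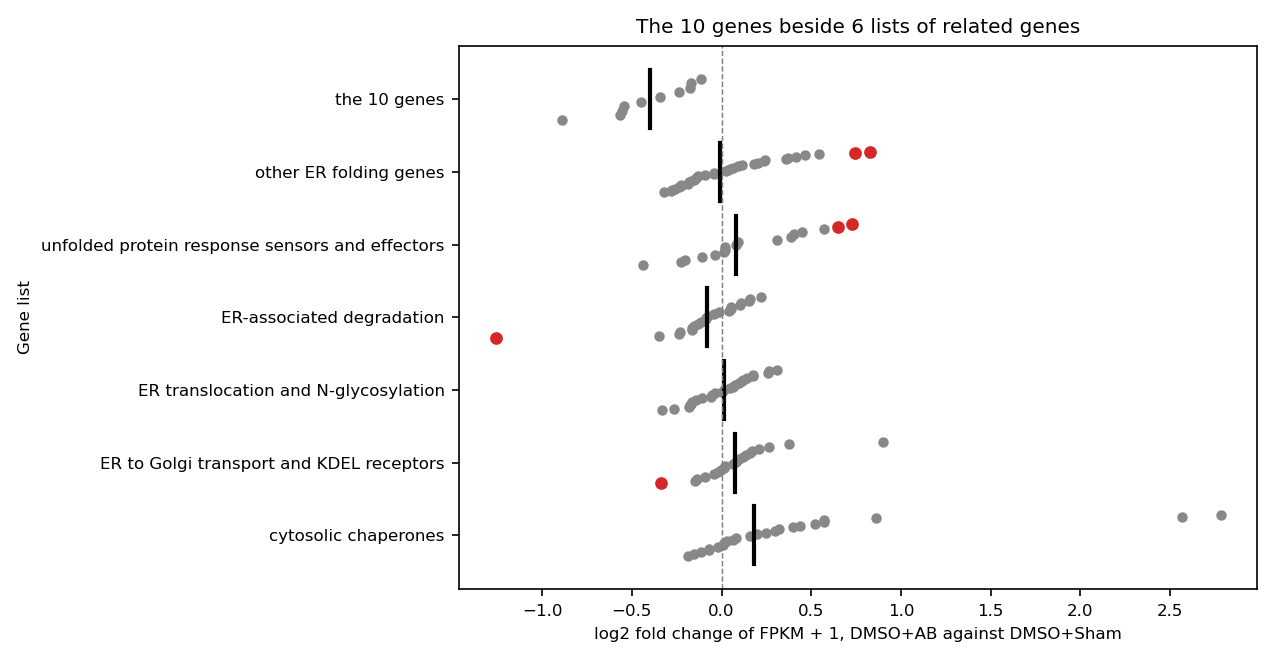
Log2 fold changes in DMSO+AB against DMSO+Sham for the 10 genes and for 6 lists of related genes, 1 point per gene tested. Red points have an adjusted p under 0.05 and black bars are medians. The median of the 10 genes is -0.40 and those of the other lists lie between -0.08 and 0.18, with Herpud1 the red point farthest to the left.

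The genes outside the 10 whose levels were most like their mean standardized level over the 12 mice were Caprin2 (Pearson r = 0.90), Mettl4 (0.89), Fip1l1 (0.89), Copb2 (0.89) and Oard1 (0.88). Copb2, a subunit of the COPI coat, had a mean of 44.8 FPKM, the highest of these 5, and Caprin2 of 1.47 FPKM, the lowest. Among the most opposite were Lsm11 (-0.89), Kalrn (-0.87), Map4 (-0.86) and Edn3 (-0.86). After group means were removed the values were 0.68 to 0.84 for the first set and -0.76 to -0.63 for the second. These were the extremes of all genes tested and are given as a description.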

How the data were processed

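The authors deposited 1 table of FPKM for 18079 genes in 12 mice. The submitters' processing notes name HISAT2 2.0.4, Bowtie2 2.2.5, RSEM 1.2.12 and DESeq2 1.4.5 without their roles, and the genome build is not given in the sources used here. Depth is unknown, since ratios between low values were whole to within 0.1 in 19.0% of cases, where an even spread gives 20%, and no counting interval is given. Symbols were matched for 17947 genes. Values were tested as log2(FPKM + 1) with limma 3.58.1 in R 4.3.3, in 1 model of 4 group means with an eBayes trend, two-sided, with Benjamini-Hochberg adjustment over 11664 genes (3 or more mice with an FPKM of 1 or more). A fold change on this scale understates that of low genes. Figures and sequences were handled in Python 3.11.15, and the fit was tested on simulated data.

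The 10 genes and the lists were chosen with earlier results of these data known. All 10 are described, and from each list those with an adjusted p under 0.05 in DMSO+AB against DMSO+Sham or the averaged comparison, at most 4, and at least the 2 of greatest difference, and the 5 tested genes with the highest and the 5 with the lowest Pearson r with the mean standardized level of the 10, of which 1 is not reported here. The motif ATTGGNCCACG and the other genes with an ER stress element were added after the values were seen. So were the genes named without a call among the other ER folding genes. Same-numbered mice deviated together with every r above 0.1 in Hispidulin+Sham against DMSO+Sham (0.126 to 0.330) and Hispidulin+AB against Hispidulin+Sham (0.147 to 0.228) but not in DMSO+AB against DMSO+Sham (-0.198 to -0.0239) or Hispidulin+AB against DMSO+AB (-0.183 to 0.300). Alternatives were 0.1 in place of 1, a stricter filter (FPKM of 5) or none, quantile normalization, scaling by median of ratios, library weights, no trend, only the groups compared, the number series of the sample codes as a covariate, a replicate block, and each mouse left out. No library was left out of the main results.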

Additional observations from a re-analysis of the deposited data

How the results depend on the processing

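Whether any of the 10 genes was called depended on single mice, the number series and the weighting of libraries, and depth could not be assessed from FPKM. In DMSO+AB against DMSO+Sham, 608 genes were called, 358 without a filter, 1423 with library weights, 142 with the number series as covariate and 11 with only the groups compared, and from 91 to 1053 with 1 mouse left out (the first and the second DMSO+Sham mouse). Of the 10 genes 0 were called, 1 with library weights and 0 to 2 with 1 mouse left out. For AB averaged over DMSO and hispidulin, 862 genes were called, 2535 with library weights, 547 with the number series as covariate and 376 to 1220 with 1 mouse left out, and 0 of the 10, 3 with library weights, 1 with the covariate and 0 to 2 with 1 mouse left out. In Hispidulin+AB against Hispidulin+Sham, 0 genes were called, 2 without a filter, 2 with median-of-ratios scaling, 3 with quantile normalization, 209 with library weights, 49 with only the groups compared, 17 with the replicate block and 0 to 3 with 1 mouse left out. In Hispidulin+AB against DMSO+AB it was 0, 2 without a filter and 0 to 20 with 1 mouse left out (20 without the first DMSO+AB mouse). For the hispidulin average it was 0, 3 without a filter and 0 to 2 with 1 mouse left out, and for the interaction 0, and 0 to 3 with 1 mouse left out. The replicate block changed no call of the 10 genes in any comparison and moved no other count of calls by over 1.5 times. The causes were not tested.

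Signs turned for some of the 10 genes, mostly with differences near 0. With library weights, Pdia3 was at 0.22 and Pdia4 at 0.11 in DMSO+AB against DMSO+Sham, Pdia3 at -0.13 and Xbp1 at 0.015 in Hispidulin+AB against DMSO+AB, Pdia3 at 0.14 and Pdia4 at 0.046 in Hispidulin+Sham against DMSO+Sham, Xbp1 at 0.0059 in Hispidulin+AB against Hispidulin+Sham, Pdia3 at -0.26 and Pdia4 at -0.22 in the interaction, and Pdia3 at 0.088 in the averaged AB comparison. With quantile normalization, Xbp1 was at 0.022 in Hispidulin+AB against DMSO+AB and Calr at 8.59e-05 in Hispidulin+Sham against DMSO+Sham. With 1 mouse left out, DMSO+AB against DMSO+Sham ranged from -0.34 to 0.023 for Calr and -0.29 to 0.023 for Pdia3. Hispidulin+AB against DMSO+AB ranged from -0.013 to 0.52 for Hsp90b1, -0.018 to 0.045 for Calr, -0.13 to 0.19 for Pdia3 and -0.071 to 0.037 for Xbp1. Hispidulin+Sham against DMSO+Sham ranged from -0.16 to 0.13 for Hspa5, -0.19 to 0.18 for Calr, -0.19 to 0.079 for Pdia3, -0.29 to 0.074 for Pdia6 and -0.099 to 0.032 for Dnajb9. Hispidulin+AB against Hispidulin+Sham ranged from -0.24 to 0.022 for Calr, -0.17 to 0.0094 for Pdia3, -0.11 to 0.012 for Xbp1 and -0.47 to 0.033 for Sdf2l1, and the interaction from -0.17 to 0.19 for Calr, -0.095 to 0.22 for Pdia3 and -0.064 to 0.24 for Pdia4. The sign of Canx turned in none of these fits. The 19 other genes counted here leave out Hyou1, Manf, Sil1, Dnajb11, Tor1a, Txndc5, P4hb and Pdia5. Of the 19, Creld2 turned to 0.097 with library weights in DMSO+AB against DMSO+Sham. Alg12 ranged from -0.020 to 0.15 in that comparison with 1 mouse left out. In the same comparison 51 of 302 fits lost a call and 11 gained one, and the replicate block ended the calls of Creb3l2 and Sar1a. There the same numbers did not pair the mice.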
